A study of Mus musculus with 11 samples.

Results

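A set of 5 imprinted loci was followed across 3 histone marks and the DNA methylation of the fragments that carry them: Grb10 with its neighbour Ddc, Plagl1, Impact, Peg10 with Sgce, and Mest with Copg2. The 8 genes were chosen by name, as known imprinted genes and their neighbours, from 49554 genes in the RefSeq table. Each locus was taken as the gene body and 5 kb on either side in mm10 coordinates and cut into 1-kb windows. This gave 536 of the 2526718 windows that hold a CpG in the deposited table, with 5715 CpGs. The genes lie at chr11:11930499-12037428 (Grb10), chr11:11814101-11898144 (Ddc), chr10:13090832-13131694 (Plagl1), chr18:12954690-12992950 (Impact), chr6:4747306-4760517 (Peg10), chr6:4674350-4747204 (Sgce), chr6:30733506-30748466 (Mest) and chr6:30747554-30896815 (Copg2).

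All samples were E14 mouse embryonic stem cells of the 129/Ola background, cultured in serum with leukemia inhibitory factor, with no treatment or genotype contrast. In CUT&Tag-BS an antibody against a histone mark guides a protein A-Tn5 transposase to chromatin, and the cut DNA is bisulfite converted before sequencing, so that methylation is read only on fragments near the mark. Bisulfite data came from H3K4me1 and H3K9me3 (250000 cells each, run 1 and run 2) and from H3K27me3 at 4000, 20000, 100000 and 250000 cells, beside 1 control without bisulfite per mark. E14 is a single cell line, and the files hold no allele information, so the maternal and paternal copies cannot be told apart.

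Imprinted genes are expressed mainly from the copy inherited from 1 parent. At all 5 loci the textbook control element is a CpG-rich stretch that is methylated in the oocyte and so on the maternal copy, while the paternal copy stays unmethylated. The methylated copy of such elements is known to carry H3K9me3, laid down through the zinc finger protein ZFP57 and its partner TRIM28, and the unmethylated copy to carry active or Polycomb marks. H3K4me1 marks enhancers and the flanks of promoters, and H3K27me3 is the mark of Polycomb repression. Mest encodes a hydrolase-fold enzyme, Plagl1 a zinc finger transcription factor that restrains growth, Peg10 a retrotransposon-derived protein needed in the placenta, and Impact a regulator of translation. These 4 are expressed from the paternal copy. Sgce, a sarcoglycan gene, is also expressed from the paternal copy. Grb10 encodes an adaptor that dampens insulin receptor signalling and is expressed from the maternal copy in most tissues. Ddc encodes the decarboxylase that makes dopamine and serotonin, and Copg2 a subunit of the COPI vesicle coat.

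The sequences printed here show promoters on which the marks and levels described below were read: the 250 bases upstream of the annotated transcript starts of Mest, Plagl1, Grb10 and Copg2, from RefSeq for GRCm38.p6, written 5′ to 3′ on the strand of the gene with every CpG in capitals. They lie at chr6:30737800-30738049 (Mest, plus strand), chr10:13090582-13090831 (Plagl1, plus strand), chr11:12037421-12037670 (Grb10, minus strand) and chr6:30896795-30897044 (Copg2, minus strand).
Mest: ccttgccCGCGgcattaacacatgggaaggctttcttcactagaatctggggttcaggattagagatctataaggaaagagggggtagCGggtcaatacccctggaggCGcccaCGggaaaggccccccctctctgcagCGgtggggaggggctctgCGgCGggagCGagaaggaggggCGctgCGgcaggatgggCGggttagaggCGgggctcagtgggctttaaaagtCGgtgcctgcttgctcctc
Plagl1: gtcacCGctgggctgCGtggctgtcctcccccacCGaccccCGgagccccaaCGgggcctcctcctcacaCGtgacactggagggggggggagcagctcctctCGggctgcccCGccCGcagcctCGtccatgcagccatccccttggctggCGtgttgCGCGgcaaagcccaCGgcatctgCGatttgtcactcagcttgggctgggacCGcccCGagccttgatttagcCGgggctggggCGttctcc
Grb10: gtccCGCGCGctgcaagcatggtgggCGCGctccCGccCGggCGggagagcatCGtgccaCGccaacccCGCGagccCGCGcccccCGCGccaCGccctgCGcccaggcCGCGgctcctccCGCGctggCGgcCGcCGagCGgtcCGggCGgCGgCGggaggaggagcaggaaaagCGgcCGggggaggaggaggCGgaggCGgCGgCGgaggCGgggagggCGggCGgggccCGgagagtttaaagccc
Copg2: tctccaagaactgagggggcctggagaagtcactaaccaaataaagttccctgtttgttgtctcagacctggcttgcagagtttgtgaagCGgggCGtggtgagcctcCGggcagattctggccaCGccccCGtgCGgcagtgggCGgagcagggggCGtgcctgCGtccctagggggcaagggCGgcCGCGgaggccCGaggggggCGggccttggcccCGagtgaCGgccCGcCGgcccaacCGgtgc
The Mest stretch holds 14 CpGs, the Plagl1 and Copg2 stretches 19 each and the Grb10 stretch 40, against a median of 6 over 32851 RefSeq promoters of the same length. Methylation calls on the Mest stretch came almost wholly from H3K9me3: 34 of 38 calls in run 2 were methylated, 89.5% (95% Wilson interval 75.9 to 95.8). On the Plagl1 stretch 21 of 28 H3K9me3 calls in run 2 were methylated, 75.0% (56.6 to 87.3), and 1 of 6 H3K4me1 calls in run 2. On the Grb10 stretch 4 of 1014 calls in the 250000-cell H3K27me3 library were methylated, 0.394% (0.154 to 1.01). On the Copg2 stretch 0 of 11 H3K4me1 calls in run 2 were methylated, which allows a level of up to 27.3%. Intervals and limits cover counting error only, because calls on 1 fragment and on amplified copies are not independent.

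The hexamer TGCCGC, the core that ZFP57 is known to bind when methylated, was searched on both strands of these 250-base promoters. It was found in 8.68% of all 32851 promoters (2850). The 8 genes had 9 promoter entries from 5 genes, of which 4 held it: both near-identical Mest entries with 2 copies each, Plagl1 with 1 and Copg2 with 1. The 2 Grb10 entries had none of these letters in the window. No promoter sequence is shown for Impact, Peg10 and Sgce.

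**Figure D1:**
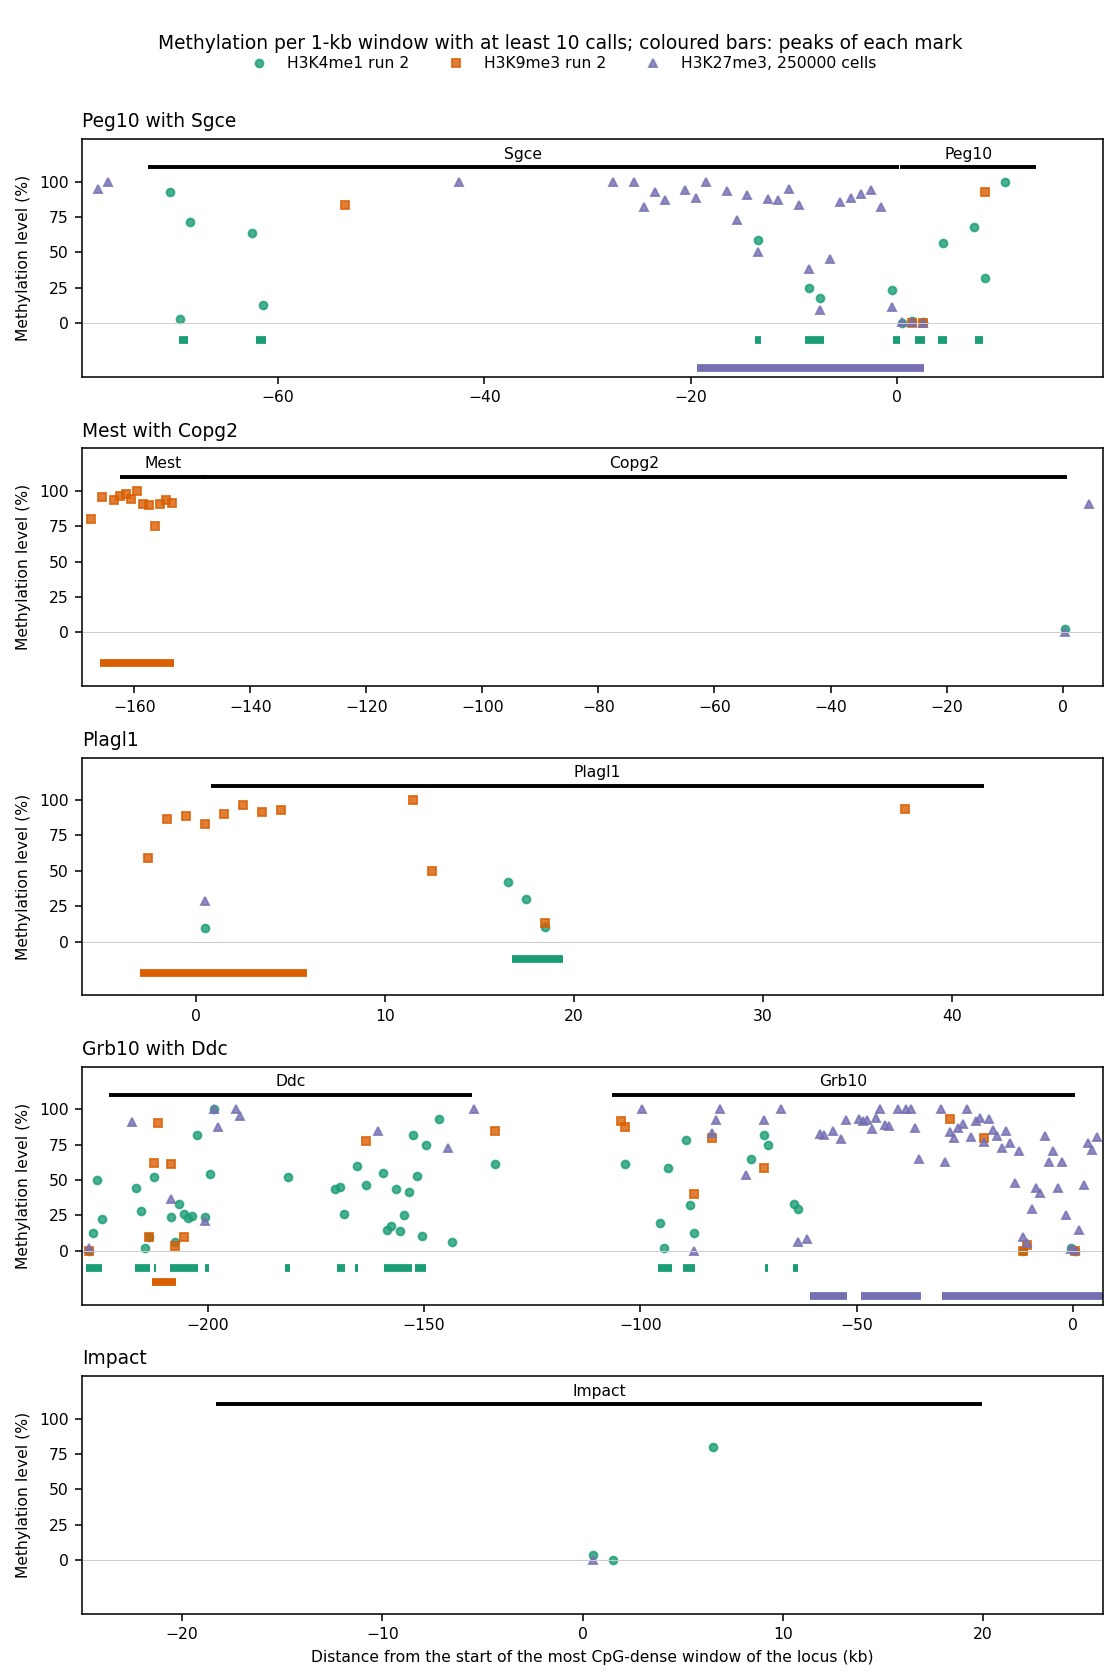
Methylation level in percent (vertical axis) of each 1-kb window with at least 10 calls, against distance in kb from the start of the most CpG-dense window of the locus, for H3K4me1 run 2, H3K9me3 run 2 and the 250000-cell H3K27me3 library. Black bars are gene bodies and coloured bars below 0 are peaks of each mark. The broad H3K9me3 bars at Mest and Plagl1 lie under high levels, and the broad H3K27me3 bar at Grb10 spans windows from 0.720 to 100%.

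The genome-wide depth ranged from 378056 calls (H3K27me3, 4000 cells) to 37177077 calls (H3K27me3, 250000 cells), and the loci received from 193 to 35788 of them. Run 1 and run 2 of a mark were more alike than separate molecules would be (mean chi-square 0.390 ± 0.00204 for H3K4me1 and 0.722 ± 0.0267 for H3K9me3, SE over CpGs, where separate molecules give 1). They were therefore counted as 1 library per mark, with run 2, the deeper one, as the main value. All 6 of 6 stem cell genes examined (Pou5f1, Sox2, Nanog, Klf4, Esrrb, Tfcp2l1) had an H3K4me1 peak near a gene end. In 5 of them the denser end was methylated at 0 to 3.85%, and in Esrrb at 75% of 8 calls.

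Summed over whole loci, the H3K9me3 level of run 2 set the loci apart more than the H3K4me1 level did. Genome-wide, 81.9% of H3K9me3 calls and 32.5% of H3K4me1 calls of run 2 were methylated. H3K9me3 was methylated at 92.0% (90.4 to 93.4) of 1281 calls at Mest with Copg2 and at 85.7% (82.6 to 88.3) of 593 calls at Plagl1. It stood at 68.2% (60.4 to 75.1) of 151 calls at Peg10 with Sgce and at 57.0% (53.2 to 60.6) of 690 calls at Grb10 with Ddc. Impact had only 22 H3K9me3 calls, 6 of them methylated (27.3%, 13.2 to 48.2). The H3K4me1 level of run 2 lay between 19.7 and 32.1% at all 5 loci. The lowest, at Mest with Copg2, came mostly from the Copg2 region, with 5 of 57 calls methylated. In the Mest region 8 of 9 H3K4me1 calls were methylated. The H3K9me3 calls of that locus came mostly from the Mest region (1158 of 1257 methylated), so the 2 levels were read in different places. In the order given above for H3K9me3, the intervals of neighbouring loci overlapped only for Peg10 with Sgce and Grb10 with Ddc. Mest with Copg2 and, only slightly, Plagl1 stood above the genome-wide H3K9me3 level, and the other loci stood below it.

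Mest stood under the broadest H3K9me3 signal of the 5 loci, and that signal was methylated throughout. The unified H3K9me3 peak, which merges the lists of all H3K9me3 samples, ran over chr6:30730005-30742925 (12921 bp), across the 5′ part of Mest. The bisulfite runs called it at 9270 bp (run 1) and 12921 bp (run 2), and the control without bisulfite at 7808 bp. Of the 12 windows in the peak with at least 10 calls in run 2, the lowest level was 75%, the median 93.5% and the highest 100%. In the 2 kb at chr6:30737001-30739000 (109 CpGs), which hold the promoter printed above, 190 of 213 calls were methylated in run 1 (89.2%, 84.3 to 92.7). In run 2 it was 558 of 618 calls (90.3%, 87.7 to 92.4). The 2 runs were counted as 1 library, so their closeness is not replication. Calls per CpG there were 19.2 times the genome mean of the H3K9me3 library.

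No H3K4me1 call fell on this Mest stretch in run 1 or run 2, nor any H3K27me3 call from 4000 or 20000 cells. The few H3K27me3 calls from the deeper libraries were also methylated, 17 of 18 from 100000 cells (94.4%, 74.2 to 99.0) and 5 of 5 from 250000 cells. They amount to 0.144 and 0.0264 times the genome mean of their libraries. No Mest window could be compared between H3K9me3 and H3K4me1, because none reached 10 calls in both. An unmethylated copy carrying none of the 3 marks would yield few calls and was not measured.

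Plagl1 showed the same mark over its promoter, but with a second, unmethylated population of calls. The H3K9me3 peak covered chr10:13087050-13095917 (8868 bp), on both sides of the gene start. In the control without bisulfite it appeared as 2 narrow peaks of 1001 bp each. Its 8 windows with at least 10 calls in run 2 ranged from 59.1 to 96.2%, with a median of 89.4%. Across chr10:13090001-13092000 (112 CpGs), 106 of 116 calls were methylated in run 1 (91.4%, 84.9 to 95.3) and 207 of 239 in run 2 (86.6%, 81.7 to 90.4). In the H3K4me1 libraries 1 of 9 calls was methylated in run 1 and 2 of 22 in run 2 (9.09%, 2.53 to 27.8). The H3K27me3 libraries gave 2 of 22 calls from 100000 cells (9.09%, 2.53 to 27.8) and 4 of 14 from 250000 cells (28.6%, 11.7 to 54.6). The H3K9me3 intervals lay wholly above those of H3K4me1 and H3K27me3. The H3K4me1 and H3K27me3 calls were sparse, at 0.433 and at most 0.172 times their genome means.

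A second CpG-dense window inside Plagl1, chr10:13127001-13128000 (31 CpGs), was methylated in 29 of 31 H3K9me3 calls of run 2 (93.5%, 79.3 to 98.2) and had no H3K4me1 call. The only H3K4me1 peak of Plagl1 (2721 bp) lay in the body at chr10:13106709-13109429. There the H3K4me1 level was 23.1% (17.6 to 29.7) of 182 calls and the H3K9me3 level 30.8% (16.5 to 50.0) of 26 calls in run 2, and the 2 intervals overlapped. No H3K9me3 peak was called there.

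At Grb10 the broad peaks were of H3K27me3. The unified H3K27me3 peak spanned chr11:12006830-12069741 (62912 bp), from the 5′ part of Grb10 past its start. It was called at 37395 bp from 20000 cells, 53971 bp from 100000 cells and 58335 bp from 250000 cells, and at 62912 bp in the control. The 4000-cell library had no peak at any of the loci. A further 2 H3K27me3 peaks (8664 and 13715 bp) lay further into the gene. No H3K9me3 peak was called in the Grb10 region, and its 4 H3K4me1 peaks, all in the body, had levels from 23.5 to 76.6% in run 2.

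Only the part of this domain inside the Grb10 region, up to chr11:12042428, was read, as 36 windows. Within that part methylation fell as CpG density rose. In the 250000-cell library, the 30 windows of up to 14 CpGs had a level of 63.8% (62.8 to 64.7; lowest 29.7%, median 76.8%, highest 100%). The 2 windows of 15 to 39 CpGs stood at 21.2% (19.7 to 22.7), and the 4 windows of 40 or more CpGs at 5.05% (4.74 to 5.39). The same order held from 100000 cells, at 64.2, 18.5 and 4.94%, and from 20000 cells, at 62.6% (590 of 942 calls), 53 of 279 calls and 5.34%. The 4000-cell library gave 57.1% of 49 calls, 0 of 12 and 7.14% of 70, with intervals too wide to order the last 2. H3K27me3 fragments of this part of the domain were mostly methylated in CpG-poor windows and mostly unmethylated in CpG-dense ones.

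The 2 CpG-dense stretches of Grb10 differed in level. The promoter stretch chr11:12036001-12038000 (215 CpGs) was methylated in 75 of 7259 calls of the 250000-cell library (1.03%, 0.825 to 1.29). The internal island, taken as the 1-kb window chr11:12026001-12027000 (101 CpGs) inside the gene, was methylated in 234 of 4140 calls (5.65%, 4.99 to 6.40). The 100000-cell library gave 0.984% (0.715 to 1.35) and 4.93% (4.13 to 5.88), and the 20000-cell library 0.742% (0.289 to 1.89) and 5.47% (3.49 to 8.48). In each of these 3 libraries the 2 intervals did not overlap. H3K27me3 coverage of the internal island was 23.6 times the genome mean in the 250000-cell library. H3K9me3 also reached it, at 2.65 times its genome mean in run 1 and 3.19 times in run 2, without a called peak. These H3K9me3 calls were also mostly unmethylated, with 4 of 95 in run 2 (4.21%, 1.65 to 10.3) and 1 of 25 in run 1. H3K4me1 calls there numbered 7 in run 2, 0 of them methylated, which allows up to 42.9%.

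The internal island was not even. In 200-bp bins of the 250000-cell library, the 2 bins at the centre of its window stood at 1.38% of 1376 calls (chr11:12026201-12026400) and 1.55% of 1227 calls (chr11:12026401-12026600). The bins at chr11:12026001-12026200 and chr11:12026801-12027000 stood at 10.7% of 872 calls and 18.8% of 325 calls. CpG-dense bins also adjoined the window and were not counted in it. These were chr11:12025401-12025600 (14 CpGs, 19.3% of 1306 calls), chr11:12025601-12025800 (20 CpGs, 5.86% of 1945) and chr11:12025801-12026000 (23 CpGs, 5.77% of 2738). In the last, 8 of 28 H3K9me3 calls of run 1 and 0 of 18 of run 2 were methylated, a gap between runs that were counted as 1 library. Because these adjoining bins lie outside the window, the level read for the island depends on where the grid fell. The second Grb10 promoter entry (chr11:12027972-12028221, 8 CpGs) reached 37.1% (33.2 to 41.1) of 580 calls.

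**Figure D2:**
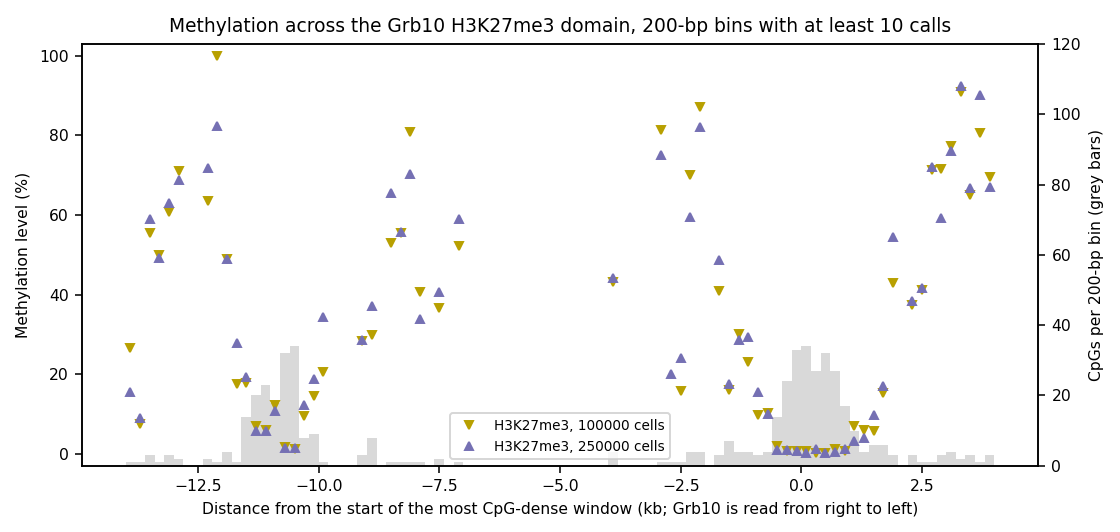
Methylation level in percent (left axis) of 200-bp bins with at least 10 calls around both CpG-dense stretches of Grb10, in the H3K27me3 libraries of 100000 and 250000 cells, against distance in kb from the most CpG-dense window. Grey bars give CpGs per bin (right axis). In both libraries the levels dip where the grey bars are tallest, to 1.38% at the centre of the internal island window in the 250000-cell library.

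Peg10 and Sgce lie next to each other, and the CpG-dense stretch that covers the facing gene ends and the first part of Peg10 had levels near 0 in all 3 marks. At chr6:4747001-4749000 (138 CpGs), 2 of 232 H3K4me1 calls of run 2 were methylated (0.862%, 0.237 to 3.09) and 1 of 125 of run 1. In H3K27me3 from 250000 cells it was 8 of 988 (0.810%, 0.411 to 1.59), from 100000 cells 7 of 745 and from 20000 cells 2 of 193. H3K9me3 gave 0 of 10 calls in run 2, which allows up to 30%. Coverage was 3.71 times the genome mean for H3K4me1 and 4.11 times for H3K27me3, against 0.246 times for H3K9me3.

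The H3K27me3 peak here ran over chr6:4727656-4749589 (21934 bp), mostly in the body of Sgce, and ended past the Peg10 start. Inside it the 250000-cell library was at 70.9% (67.8 to 73.9) in windows of up to 14 CpGs, 63.5% (60.7 to 66.2) in windows of 15 to 39 CpGs and 0.810% in the 2 densest windows. The 8 windows of 15 to 39 CpGs ranged from 11.2 to 94.8%, a range that includes the 2 Grb10 windows of that class (14.5 and 25.6%). Sgce had 7 H3K4me1 peaks and Peg10 4, with peak levels in run 2 from 1.65 to 63.0% at Sgce and from 1.65 to 56.5% at Peg10. Peaks where the 2 regions overlap, among them the lowest, were counted for both genes, and the locus held 8 in all.

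A window in the body of Peg10, chr6:4755001-4756000 (45 CpGs), differed in pooled level between the H3K4me1 and H3K9me3 libraries. H3K4me1 was methylated in 7 of 33 calls of run 1 and 25 of 79 of run 2 (31.6%, 22.4 to 42.5). H3K9me3 was methylated in 13 of 14 calls of run 2 (92.9%, 68.5 to 98.7), and run 1 had a single call. The calls of run 2 fell largely on different parts of this window. At chr6:4755001-4755200, 6 of 38 H3K4me1 and 2 of 3 H3K9me3 calls were methylated. At chr6:4755201-4755400 it was 11 of 31 H3K4me1 calls, with no H3K9me3 call. At chr6:4755601-4755800 it was 1 of 2 and 3 of 3, and at chr6:4755801-4756000 it was 7 of 8 and 6 of 6. No H3K9me3 peak was called at Peg10, and the coverage was 1.05 times the genome mean, close to the average CpG of that library.

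Impact had no peak of any mark in any of the lists. Its CpG-dense windows chr18:12972001-12975000 (147 CpGs) were nevertheless read, and were almost free of methylation. Run 1 of H3K4me1 had 1 methylated call of 48, and run 2 had 1 of 89 (interval 0.199 to 6.09%). H3K27me3 gave 0 of 18, 0 of 33 and 0 of 15 calls from 20000, 100000 and 250000 cells, which allow up to 16.7, 9.09 and 20%. H3K9me3 gave 0 of 11 in run 2, which allows up to 27.3%. Coverage was 1.33 times the genome mean for H3K4me1 and 0.254 times for H3K9me3. At this depth methylated fragments were not detectable on this 3-kb stretch in H3K9me3 or H3K27me3. Over the whole Impact region methylated calls were present in each mark, with 32 of 142 in H3K4me1 run 2, 6 of 22 in H3K9me3 run 2 and 26 of 50 in H3K27me3 from 250000 cells.

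The neighbours Ddc and Copg2 differed from the genes beside them. Ddc had 10 H3K4me1 peaks, against 4 at Grb10, with levels in run 2 from 13.0 to 53.0% (median 29.3%), and no H3K27me3 peak. It also had an H3K9me3 peak of 5497 bp at chr11:11824267-11829763, where H3K9me3 was methylated at 56.7% (48.0 to 65.0) of 127 calls and H3K4me1 at 13.1% (10.1 to 16.7) of 405 calls in run 2. The calls of the 2 marks fell on different parts of this peak, and within the 2 narrower pieces called in run 1 the levels were close. At chr11:11824853-11826631, 13 of 13 H3K4me1 and 36 of 39 H3K9me3 calls of run 2 were methylated. At chr11:11828389-11829746, 23 of 364 H3K4me1 and 3 of 41 H3K9me3 calls were. The CpG-dense end of Copg2, chr6:30896001-30897000 (85 CpGs), carried no peak and was methylated in 1 of 44 H3K4me1 calls (2.27%, 0.402 to 11.8) and 0 of 29 H3K27me3 calls from 250000 cells, which allows up to 10.3%. Its H3K9me3 coverage was 0.0399 times the genome mean, against 19.2 times at Mest in the same locus. Between chr6:30752793 and chr6:30802915, inside Copg2, no CpG was listed over 50122 bp, and that stretch was not analysed here.

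**Figure D3:**
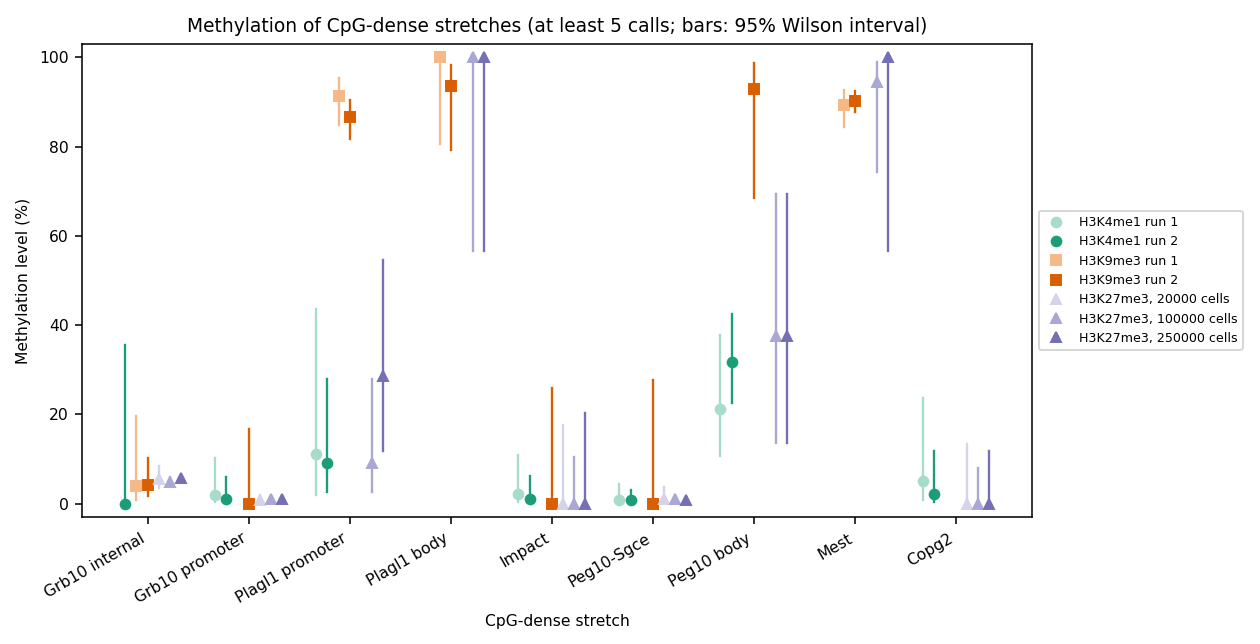
Methylation level in percent with 95% Wilson intervals of the 9 CpG-dense stretches in each library with at least 5 calls; the 4000-cell library is left out. Squares (H3K9me3) are high at the Plagl1 promoter (86.6% in run 2), the Plagl1 body (93.5%), the Peg10 body (92.9%) and Mest (90.3%) and low at Grb10, Impact and Peg10-Sgce, and circles (H3K4me1) are low or missing except in the Peg10 body.

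**Figure D4:**
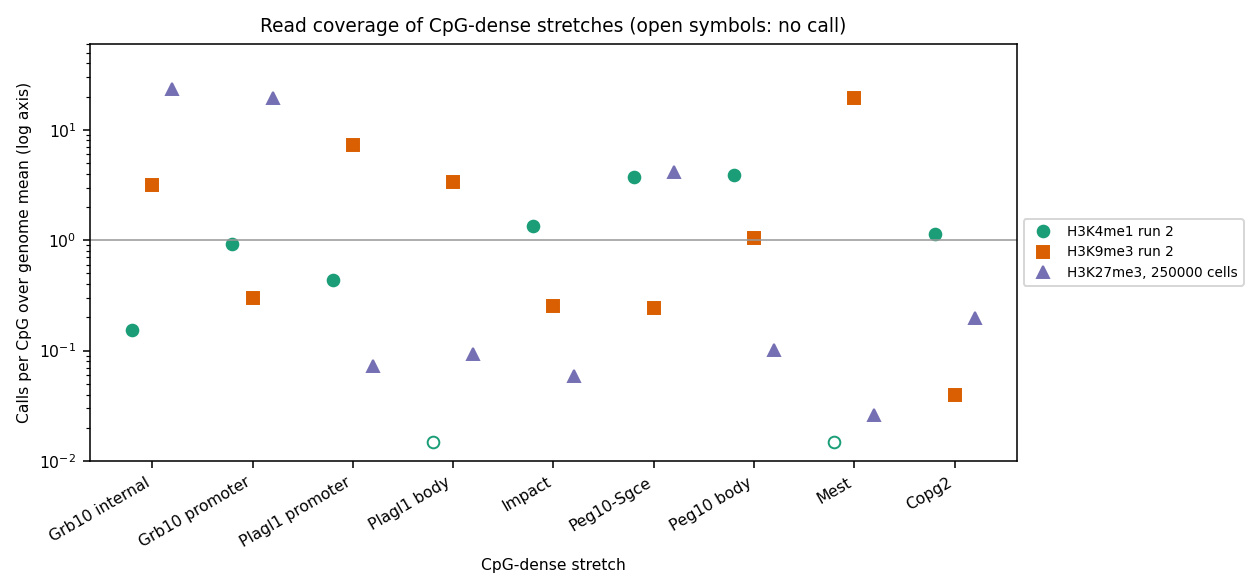
Calls per CpG of the 9 CpG-dense stretches divided by the mean over all CpGs of the same library (log axis), for H3K4me1 run 2, H3K9me3 run 2 and H3K27me3 from 250000 cells; open symbols at the lower edge mark 0 calls. H3K9me3 stands at 19.2 at Mest and 7.23 at the Plagl1 promoter, and H3K27me3 at 23.6 and 19.4 at the Grb10 stretches.

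Across the loci, 28 windows overlapped an H3K9me3 peak (2.97% of windows over the genome), 83 an H3K27me3 peak (4.87%) and 70 an H3K4me1 peak (4.25%). Only the H3K4me1 count rested on narrow peaks, since 39 windows were left when peaks under 2000 bp were dropped. Among windows of at least 40 CpGs and 10 calls, 5 of 9 at the loci were methylated at 80% or more in H3K9me3 run 2, and genome-wide 14.9% were. These were adjoining windows at the Plagl1 promoter and at Mest, and the Peg10 body window with 14 calls, so they are not 5 separate places. At 10% or less stood 8 of 9 windows in H3K27me3 from 250000 cells (79% genome-wide) and 9 of 10 in H3K4me1 run 2 (80.7% genome-wide). The low levels of H3K4me1 and H3K27me3 at these stretches are therefore near the share for CpG-dense windows in general.

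Marks were then compared window by window with Fisher's exact test (two-sided, Benjamini-Hochberg over all genome windows with at least 10 calls in both libraries, called at adjusted p under 0.05 and 20 points). With 1 library per mark, the test compares these libraries, not the marks. H3K9me3 was higher than H3K4me1 in 3 of 18 windows and lower in 0, where 6.78 and 0.159% of 14485 windows were called genome-wide. At Plagl1 (chr10:13090001-13091000) H3K4me1 was at 9.52% of 21 calls and H3K9me3 at 82.7% of 110 calls, a difference of 73.2 points (Fisher's exact test, adjusted p = 2.35e-08). Over the 21 CpGs read in both libraries it was 66.2 points. At the Peg10 body window the difference was 61.2 points (Fisher's exact test, adjusted p = 7.97e-04). Over the 8 CpGs read in both libraries it was 45.4 points, with too few calls for the test, and in 2-kb windows it was 33.1 points (Fisher's exact test, adjusted p = 0.0825).

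The third was at Ddc (chr11:11828001-11829000), with H3K4me1 at 23.7% of 59 calls and H3K9me3 at 61.5% of 26 calls, a difference of 37.8 points (Fisher's exact test, adjusted p = 0.0230). In 2-kb windows it was 20.3 points, at the edge of the 20-point threshold (35 of 389 against 17 of 58 calls). On shared CpGs it was 34.1 points and missed the threshold (Fisher's exact test, adjusted p = 0.0767). This Ddc window crosses the edge of the piece chr11:11828389-11829746 described above. In that piece 23 of 364 H3K4me1 and 3 of 41 H3K9me3 calls of run 2 were methylated. From run 1 of both marks 0 windows were called: the Plagl1 and Peg10 windows had too few calls to be tested, and at Ddc the difference was 45.8 points (Fisher's exact test, adjusted p = 0.152). On a grid shifted by 500 bp 1 window was called, at Plagl1 (chr10:13090501-13091500, 1 of 18 H3K4me1 and 184 of 215 H3K9me3 calls methylated).

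H3K27me3 from 250000 cells and H3K4me1 were called different in 0 of 20 windows, where 1.09 and 0.463% of 57920 were called higher and lower genome-wide. Of the 20, 1 had an unadjusted p under 0.05 in Fisher's exact test, against 7413 of the 57920 genome-wide. It lay at chr6:4746001-4747000, at the 5′ end of Sgce, at 23.5% of 81 H3K4me1 calls and 11.2% of 161 H3K27me3 calls. H3K9me3 was higher than H3K27me3 in 1 of 13 windows and lower in 0, against 2.5 and 0.289% of 16623 genome-wide. That window was again Plagl1 chr10:13090001-13091000, with 54.2 points (Fisher's exact test, adjusted p = 0.00424). On its 11 shared CpGs it was 42.9 points and missed the threshold (Fisher's exact test, adjusted p = 0.292). The 100000- and 250000-cell H3K27me3 libraries, the separate libraries of 1 mark, were called different in 0 of 83 windows in Fisher's exact test. Genome-wide 0.0103 and 0.0103% of 165178 were called higher and lower. An unadjusted p under 0.05 in Fisher's exact test was found in 3 of the 83, against 9525 of the 165178 genome-wide. The SD of the difference between these 2 libraries was 7.76 points over the 83 windows. Over the 18 windows of H3K9me3 minus H3K4me1 the SD was 25.4 points, and over the 20 of H3K27me3 minus H3K4me1 it was 10.1 points. These SDs cover different windows at unlike depth. The mean was 1.15 and 1.74 calls per CpG in the 100000- and 250000-cell libraries, against 0.454 in H3K4me1 and 0.295 in H3K9me3 run 2. The gap between the SDs therefore does not measure a difference between marks.

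By gene, 3 of the 5 listed genes with a tested window held 1 called higher in H3K9me3 than in H3K4me1 (Ddc, Plagl1 and Peg10), against 7.64% of 9800 genes. Grb10 and Sgce were tested and held none, while Impact, Mest and Copg2 had no tested window. On CpGs read in both libraries a Grb10 window was called (chr11:11949001-11950000), with 2 of 111 H3K4me1 and 4 of 10 H3K9me3 calls methylated, a difference of 38.2 points (Fisher's exact test, adjusted p = 0.00805). Among 22 neighbours of the clusters, 8 had a tested window and 0 held a called one. Among 20 other imprinted genes, 12 had a tested window and 10 held a called one (Peg3, Snrpn, Kcnq1ot1, Airn, Igf2r, Zrsr1, Inpp5f, Nap1l5, Gnas and Meg3).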

How the data were processed

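The data are CUT&Tag-BS libraries of E14 mouse embryonic stem cells. The authors deposited 1 table that gives, per CpG and bisulfite library, a count of methylated calls beside the total count, as whole numbers without normalization, per the file headers, and peak lists that hold positions without scores. The submitters' processing notes name cutadapt 1.12, Bismark 0.23.0, Bowtie2 2.3.0, HOMER 4.10.3, bedtools 2.29.2 and the build mm10. How duplicate reads were treated is not given in the sources used here. All 154 CpGs of the 9 RefSeq promoter sequences were found in the table at their GRCm38.p6 positions.

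Calls were summed per 1-kb window on chromosomes 1 to 19 and X, and a level is methylated over all calls in percent, with a 95% Wilson interval. Windows with at least 10 calls in each of 2 libraries were compared with Fisher's exact test and adjusted over the genome. The test was coded with numba 0.67.0, numpy 2.4.6 and Python 3.11.15. It was checked on simulated data and against the test of scipy 1.17.1. Run 1 and run 2 of a mark were treated as 1 library, so p-values measure counting error. A limit for 0 methylated calls is 3 calls of the total. The genes named are the 8 members. The windows named are those called, the 3 most CpG-dense of each locus and the densest near gene ends, with the widest peaks. Windows singled out beyond that, among them the 200-bp bins, were chosen after their values were seen. The members and lists were chosen with earlier results of these data known. Fixed alternatives covered the minimum of calls, the grid, the window size, shared CpGs, the size of the difference, the runs and the H3K27me3 library.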

Additional observations from a re-analysis of the deposited data

How the results depend on the processing

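The count of 3 windows higher in H3K9me3 than in H3K4me1 became 1 on the grid shifted by 500 bp and, with the test stratified by run as a replicate block, 5 (10.3% of windows over the genome). The blocked fit added 1 Ddc and 1 Grb10 window. It pairs runs by number, and those runs behaved as 1 library, so it adds calls rather than replicates. Without run 2 of both marks the count was 0, and the count of genes, 3, was likewise 0. The gene count was 1 on the shifted grid and 0 when 2 called windows were asked for. For H3K27me3 against H3K4me1, 0 windows became 1 on the shifted grid and 1 with 2-kb windows, both at Ddc. For H3K9me3 against H3K27me3, 1 window became 0 with at least 20 calls, 0 on shared CpGs and 2 with H3K27me3 from 100000 cells, both at the Plagl1 promoter. The 70 windows with an H3K4me1 peak became 39 when only peaks of at least 2000 bp were kept. In all, 30 of these counts stayed within 1.5 times and 12 moved. Among single windows and locus levels 31 stayed, 5 lost the threshold, 5 moved and 0 reversed. Those that moved were locus levels taken as the mean of single CpG levels. H3K4me1 run 2 rose from 28.2 to 40.5% at Grb10 with Ddc, from 32.1 to 40.2% at Plagl1 and from 28.4 to 36.4% at Peg10 with Sgce. H3K27me3 from 250000 cells rose from 27.85 to 50.3% at Grb10 with Ddc and from 47.2 to 56.7% at Peg10 with Sgce. Windows with too few calls to be tested under a setting are not in this tally. Among them are the Peg10 window with at least 20 calls, on shared CpGs and in run 1, and the Plagl1 window in run 1. A count can also stay while its windows change: on shared CpGs 2 windows were called for H3K9me3 against H3K4me1, of which only 1 was a main one. The Plagl1 and Mest loci rest on few H3K4me1 calls, and depth limits any statement on an unmethylated copy there.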
